A study of Mus musculus with 10 samples.

Results

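The genes described here encode the invariant chains of the T cell receptor complex (Cd3d, Cd3e, Cd3g and Cd247), the co-receptors CD4 and CD8 (Cd4, Cd8a and Cd8b1), the receptor-proximal kinase Lck, and the T cell surface proteins CD2 and CD5. They were taken as a list of 10 symbols, and a gene counted as measured where the array annotation gave a probe set that symbol alone. By this rule 9 of the 10 genes were measured, on 14 probe sets, out of 12393 genes on the array. Lck had no probe set named for it alone and was not analysed here. Where a gene had several, the one with the highest mean level was used, and Cd247, Cd4 and Cd8a had 5 other probe sets between them that served as a check.

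RNA came from whole lung of 10 male C57BL/6 mice aged 6 to 8 weeks, 5 exposed to intermittent hypoxia, in which inspired oxygen falls and recovers repeatedly, and 5 kept in normoxia. Each lung was hybridised to its own Affymetrix Mouse Genome 430A 2.0 array, and the series' design text describes the animals as a separate subset of 5 and 5. The oxygen level, the length of exposure and the hour of collection are not given in the sources used here, and neither is whether blood was flushed from the lungs. The values are log2 probe set levels, so a difference of 1 is a doubling. Array medians lay between 7.69 and 7.73, and the standard deviation over probe sets was lower on normoxia arrays 2, 3 and 4 (1.89 to 1.93) than on the other arrays (1.99 to 2.05). No detection calls were used, so whether a probe set lay above background was not tested.

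The T cell receptor binds peptide on MHC molecules through its variable chains, which have no signalling tail of their own. CD3δ, CD3γ and CD3ε pair as δε and γε, and together with a homodimer of CD3ζ, the product of Cd247, they carry the phosphorylation motifs that pass the signal on. CD4 binds MHC class II and CD8, a dimer of CD8α with CD8β or with itself, binds MHC class I, and both bring Lck to the complex. In the lung these transcripts come mostly from T cells in the tissue, in the airway wall and in blood held in the vessels. Some are shared. Cd4 and Cd8a are also found in subsets of mouse dendritic cells. Cd2 is found in other lymphocytes too, Cd247 in NK cells and Cd5 in B-1 cells.

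The 3 CD3 genes are neighbours on mouse chromosome 9, and their promoter windows are shown because their changes differed, as given below. In RefSeq (GRCm38.p6) Cd3g lies at chr9:44969572-44980431 on the minus strand, Cd3d at chr9:44981769-44987052 on the plus strand and Cd3e at chr9:44998735-45009663 on the minus strand. The start sites of Cd3d and Cd3g are 1355 bases apart and face away from each other, and that of Cd3e lies 27825 bases from that of Cd3d. The windows run from 250 bases before to 50 bases after the start site, at chr9:44981536-44981835 for Cd3d, chr9:44980382-44980681 for Cd3g and chr9:45009562-45009861 for Cd3e, each written 5′ to 3′ on the gene's own strand. Capitals mark every match to CANNTG, the E-box bound by basic helix-loop-helix proteins such as the E proteins of lymphocytes.
Cd3d: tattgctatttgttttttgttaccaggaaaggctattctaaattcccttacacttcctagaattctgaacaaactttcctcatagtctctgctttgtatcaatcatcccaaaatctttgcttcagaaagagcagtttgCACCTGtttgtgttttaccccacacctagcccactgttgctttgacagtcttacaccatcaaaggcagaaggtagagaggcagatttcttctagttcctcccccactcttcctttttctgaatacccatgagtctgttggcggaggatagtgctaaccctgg
Cd3g: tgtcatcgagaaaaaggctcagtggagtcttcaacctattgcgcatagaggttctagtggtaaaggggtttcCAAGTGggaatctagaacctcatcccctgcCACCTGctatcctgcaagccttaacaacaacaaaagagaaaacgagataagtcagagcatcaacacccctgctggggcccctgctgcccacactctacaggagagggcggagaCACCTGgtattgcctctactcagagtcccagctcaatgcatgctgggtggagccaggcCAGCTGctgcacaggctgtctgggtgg
Cd3e: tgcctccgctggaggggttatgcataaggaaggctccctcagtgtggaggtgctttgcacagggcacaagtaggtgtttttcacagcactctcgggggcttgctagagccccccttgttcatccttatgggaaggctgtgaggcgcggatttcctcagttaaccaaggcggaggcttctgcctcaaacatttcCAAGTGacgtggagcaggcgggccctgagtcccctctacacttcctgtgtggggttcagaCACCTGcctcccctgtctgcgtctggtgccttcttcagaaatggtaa

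The Cd3d window held 1 match to CANNTG, that of Cd3g held 4 and that of Cd3e held 2, searched on both strands, and 72.3% of all 32851 promoter windows in the table held at least 1. The form CACCTG, a subset of these matches that was looked at after the letters had been read, was found in 20.2% of all windows. It occurred 1 time in the Cd3d window, beginning 112 bases before the start site, 2 times in the Cd3g window, 148 and 35 bases before it, and 1 time in the Cd3e window, 3 bases after it. None of the 3 windows held TATAAA, which 13.6% of all windows did, and only Cd3g held AGATAA, 104 bases before its start site (11.2% of all windows). No window of the 3 held CCAAT (37.4% of all windows). These are matches of letters and describe the windows only.

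The comparison asked whether transcripts of the T cell receptor complex differed between lungs after intermittent hypoxia and normoxic lungs. Of the 9 measured genes 4 rose after intermittent hypoxia (Cd3d, Cd3g, Cd2 and Cd8b1), none fell, and 5 did not pass the test (Cd3e, Cd247, Cd4, Cd8a and Cd5). The test was limma's, two-sided, with an adjusted p below 0.05 over all 22626 probe sets. By the same test 8.93% of all 12393 genes were called higher and 3.6% lower. The same 4 genes were those whose groups did not overlap, all higher, against 5.76% of all genes that were higher and 2.85% that were lower without overlap. Higher calls made up 71.2% of all called probe sets, and 59.1% after quantile normalization, under which the 4 calls stood. The median log2 fold change of the 9 genes was 0.12, against 0.014 over all genes, and 7 of the 9 changes were positive. In whole lung, a change in the number of cells of a type and a change in RNA per cell cannot be told apart.

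**Figure D1:**
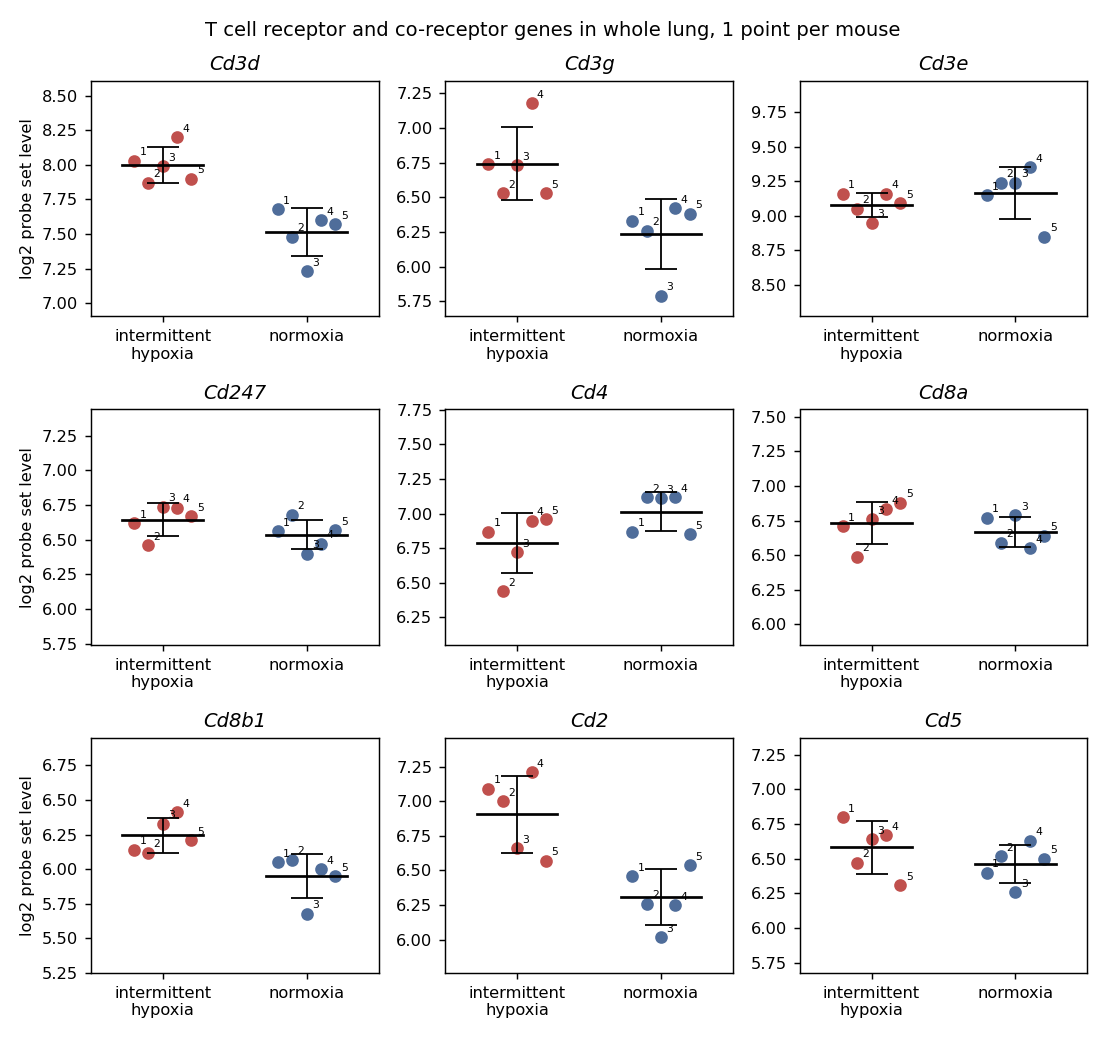
Log2 probe set level of each of the 9 measured genes (vertical axis, the same span of levels in every panel) in intermittent hypoxia (left, red) and normoxia (right, blue) lungs. Each point is 1 mouse with its array number, the long bar is the mean and the error bar 1 SD (n = 5), and the groups do not overlap for Cd3d, Cd3g, Cd8b1 and Cd2.

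Cd3d, the gene of the CD3δ chain, had the smallest p of the list. Its log2 level was 8.03, 7.87, 7.99, 8.20 and 7.90 on the 5 intermittent hypoxia arrays, against 7.68, 7.48, 7.23, 7.60 and 7.57 on the 5 normoxia arrays. Every exposed lung lay above every normoxic one, and the normoxia values were spread downward by array 3. The mean was 8.00 ± 0.13 in intermittent hypoxia and 7.51 ± 0.17 in normoxia (SD, n = 5 each), a log2 fold change of 0.49 (SE 0.09, limma adjusted p = 0.00917) or 1.40-fold (95% interval 1.22 to 1.60). The call stood with any single array left out.

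Cd3g encodes CD3γ, the other chain that pairs with CD3ε. The gene stood at 6.74, 6.53, 6.73, 7.18 and 6.53 in intermittent hypoxia, against 6.33, 6.26, 5.79, 6.42 and 6.38 in normoxia. The groups did not overlap, with array 4 the highest of the exposed lungs and array 3 well below the other normoxic ones. The change was 0.51 (SE 0.14, limma adjusted p = 0.0347), or 1.42-fold (1.15 to 1.75). The call was lost when hypoxia array 1, 3 or 4 or normoxia array 2, 3 or 4 was left out (highest adjusted p 0.0732), while the change stayed between 0.40 and 0.56.

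Cd3e encodes CD3ε, the chain common to both CD3 pairs, and its mean log2 value stood at the 73.9th percentile of all probe sets, a place that is not an amount of RNA relative to other genes. Levels were 9.16, 9.05, 8.95, 9.16 and 9.09 in intermittent hypoxia, against 9.15, 9.24, 9.24, 9.35 and 8.85 in normoxia. The exposed values lay inside the range of the normoxic ones. The change was -0.087 (SE 0.09, limma adjusted p = 0.524), with a 95% interval of -0.28 to 0.10. The interval of Cd3d, 0.29 to 0.68, lay wholly above that of Cd3e.

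The unequal change of the neighbours was also visible lung by lung. The difference Cd3d minus Cd3e was -1.13, -1.17, -0.96, -0.96 and -1.19 in intermittent hypoxia, against -1.47, -1.76, -2.01, -1.75 and -1.29 in normoxia. The groups did not overlap, and the mean difference moved by 0.57. Normoxia arrays 1 and 5 stood nearest the exposed lungs. Without normoxia arrays 2, 3 and 4 together, the change was 0.37 for Cd3d and 0.076 for Cd3e, so the size of the move rested in part on these arrays. Cd3g minus Cd3e averaged -2.34 ± 0.24 in intermittent hypoxia and -2.93 ± 0.35 in normoxia (SD, n = 5 each), with 2 exposed lungs inside the normoxic range. Cd3g minus Cd3d averaged -1.26 ± 0.14 in intermittent hypoxia and -1.28 ± 0.11 in normoxia (SD, n = 5 each). As these pairs were picked after the values were seen, they are given without a test. They compare changes of probe sets and not the amounts of the chains.

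Cd247 encodes CD3ζ, which carries the most phosphorylation motifs of the complex. On the log2 scale it measured 6.62, 6.46, 6.74, 6.73 and 6.67 in intermittent hypoxia, against 6.56, 6.68, 6.40, 6.47 and 6.57 in normoxia. The groups overlapped, and the change was 0.11 (SE 0.07, limma adjusted p = 0.324, 95% interval -0.05 to 0.27). The 3 other probe sets of Cd247 had means of 5.53 to 6.26 over all arrays and changes of 0.026, 0.063 and 0.012, none of which passed. The change of Cd247 was set against that of Cd3e by an exact permutation test of the per-array difference. The difference moved by 0.20 (exact two-sided permutation p = 0.151, also after Benjamini-Hochberg adjustment over 3 such pairs). Without normoxia array 5 it moved by 0.28 and passed (exact permutation p after adjustment 0.0476).

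**Figure D2:**
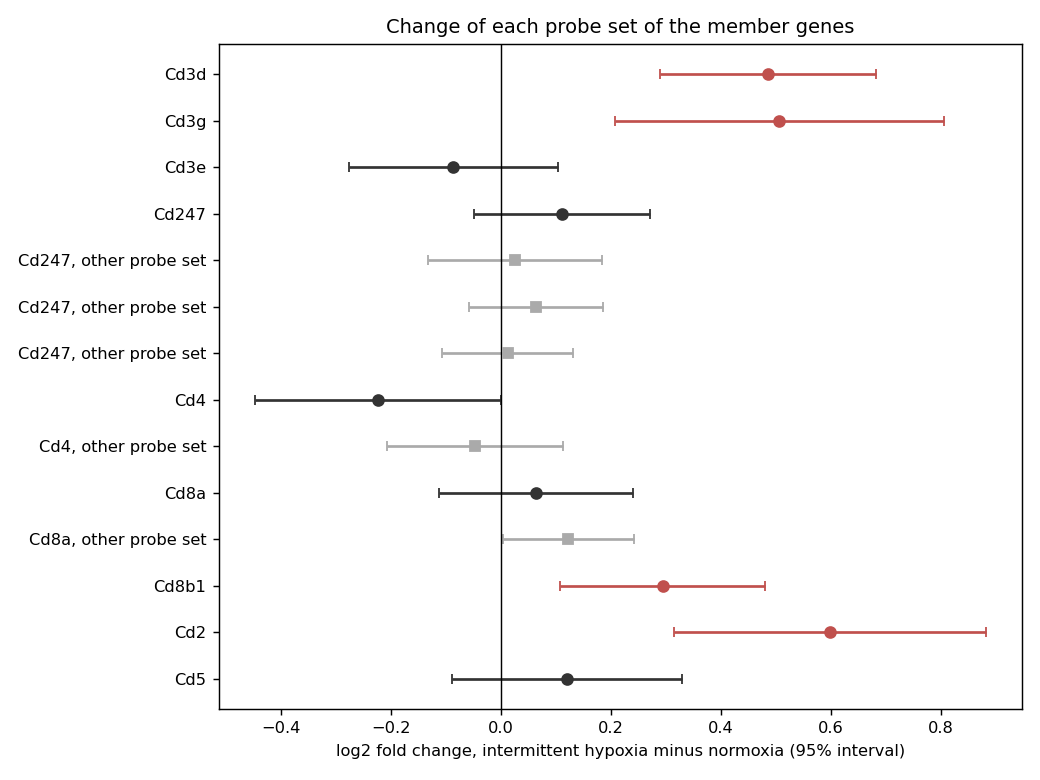
Log2 fold change of all 14 probe sets (horizontal axis, intermittent hypoxia minus normoxia) with 95% intervals from limma. Circles are the probe sets that represent the genes, squares the 5 other probe sets, and red marks the 4 with an adjusted p below 0.05, which are those of Cd3d, Cd3g, Cd8b1 and Cd2.

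Of the co-receptor genes, Cd8b1 was the one that passed. It encodes CD8β, which conventional cytotoxic T cells carry and which CD8α-positive dendritic cells lack. It stood at 6.14, 6.12, 6.33, 6.41 and 6.21 in intermittent hypoxia, against 6.05, 6.07, 5.68, 6.00 and 5.95 in normoxia. The groups were apart by little, since the lowest exposed lung stood at 6.12 and the highest normoxic one at 6.07. The change was 0.29 (SE 0.09, limma adjusted p = 0.0438), or 1.23-fold (1.08 to 1.39). It lost the call in 8 of the 10 fits with 1 array left out, those without normoxia array 1 or 5 being the exceptions (highest adjusted p 0.0991). Its mean log2 value stood at the 22.4th percentile of all probe sets.

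Cd8a, the gene of CD8α, lies next to Cd8b1 on chromosome 6, with a gap of 35934 bases between them. Levels on the log2 scale were 6.71, 6.49, 6.76, 6.83 and 6.88 in intermittent hypoxia, against 6.77, 6.59, 6.79, 6.55 and 6.64 in normoxia. The groups overlapped, and the change was 0.064 (SE 0.08, limma adjusted p = 0.624, 95% interval -0.11 to 0.24). The other probe set of Cd8a ran from 6.60 to 6.67 in intermittent hypoxia and from 6.45 to 6.59 in normoxia. Its groups did not overlap, yet its change of 0.12 (SE 0.06) did not pass the test (adjusted p = 0.150). The difference Cd8b1 minus Cd8a averaged -0.49 ± 0.12 in intermittent hypoxia and -0.72 ± 0.24 in normoxia, a move of 0.23 (SD, n = 5 each). It did not pass (p = 0.0714 by exact two-sided permutation, 0.107 after adjustment over 3 pairs).

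Cd4, the co-receptor gene of helper and regulatory T cells, had a negative change. Its log2 level was 6.87, 6.44, 6.72, 6.95 and 6.96 in intermittent hypoxia, against 6.87, 7.12, 7.11, 7.12 and 6.85 in normoxia. All 5 exposed lungs lay below the normoxic median, while normoxia arrays 1 and 5 stood among the exposed values. The change was -0.22 (SE 0.10, limma adjusted p = 0.159), or 0.857 of the normoxia level (0.734 to 1.00), and the gene's other probe set differed by -0.047 (SE 0.07, adjusted p = 0.693). Cd8a minus Cd4 averaged -0.056 ± 0.094 in intermittent hypoxia and -0.34 ± 0.20 in normoxia (SD, n = 5 each). This move of 0.29 had an exact two-sided permutation p of 0.0238 and did not pass after adjustment over the 3 pairs (0.0714). The smallest p that 5 against 5 arrays allow is 0.00794. With the mean of each gene's probe sets in place of 1 probe set, the move was 0.23 and passed (exact permutation p after adjustment 0.0238). It also passed without normoxia array 1 (exact permutation p after adjustment 0.0238) or 5 (0.0476).

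Cd2 encodes an adhesion receptor that T cells share with other lymphocytes, and it had the largest change of the list. Its log2 level was 7.09, 7.00, 6.66, 7.21 and 6.57 in intermittent hypoxia, against 6.46, 6.26, 6.02, 6.25 and 6.54 in normoxia. The groups did not overlap, though hypoxia array 5 at 6.57 and normoxia array 5 at 6.54 were nearly level. The change was 0.60 (SE 0.13, limma adjusted p = 0.0157), or 1.51-fold (1.24 to 1.84). The call stood with any single array left out, at adjusted p values up to 0.0454.

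Cd5, an inhibitory co-receptor of T cells and B-1 cells, had log2 levels of 6.80, 6.47, 6.64, 6.67 and 6.31 in intermittent hypoxia, against 6.40, 6.52, 6.26, 6.63 and 6.50 in normoxia. The groups overlapped widely. The change was 0.12 (SE 0.10, limma adjusted p = 0.419, 95% interval -0.09 to 0.33).

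**Figure D3:**
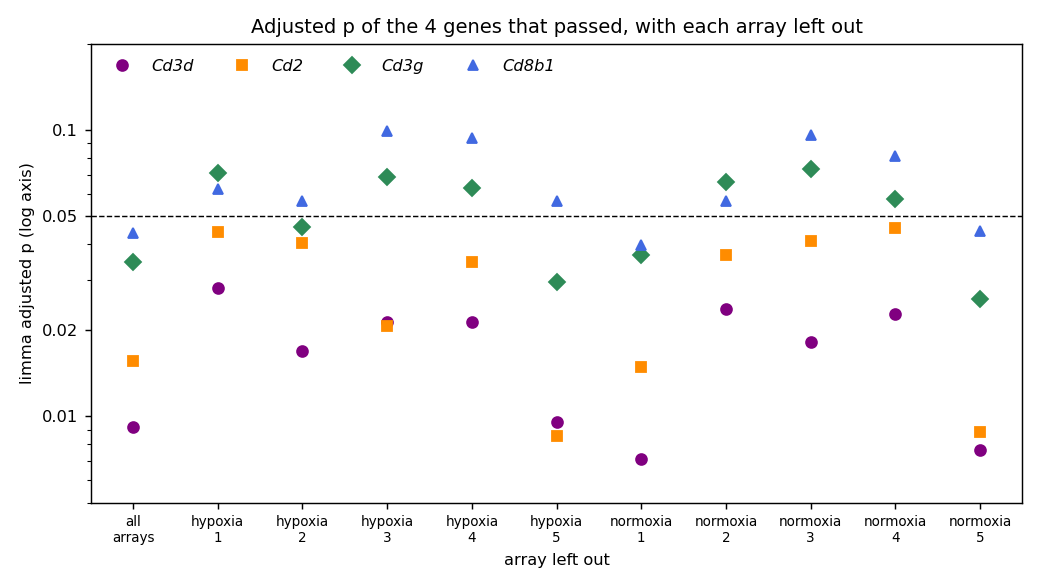
Limma adjusted p (vertical log axis) of the 4 genes that passed, with all arrays (left) and with each array left out in turn. The dashed line is 0.05. Cd3d and Cd2 stay below it throughout, while Cd3g crosses it for 6 arrays and Cd8b1 for 8.

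With 1 array left out, the number of genes called was 2, those of Cd3d and Cd2, without any one of hypoxia arrays 1, 3 and 4 and normoxia arrays 2, 3 and 4. The 4 calls rested in part on normoxia arrays 2, 3 and 4, which had the narrow spread of values given above. Without these arrays, a choice made with earlier results of these data known, none of the 9 genes passed and 16 of all probe sets did, with 2 normoxia arrays left. The changes were then 0.37 for Cd3d, 0.39 for Cd3g, 0.40 for Cd2 and 0.25 for Cd8b1, with limma adjusted p values of 0.205, 0.422, 0.422 and 0.409. All 4 kept their positive sign. That of Cd3e was 0.076 (adjusted p = 0.875), against -0.087 with all arrays.

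Most pairs of the genes that rose also varied together from lung to lung within the groups. Over the 10 arrays, after each value was set against its group mean, Cd3d and Cd3g had a Pearson r of 0.94. With Cd8b1, r was 0.80 for Cd3d and 0.83 for Cd3g, and with Cd2 it was 0.69 for both. Cd8b1 and Cd2 had a lower r, 0.33. Cd3e stood apart, with r of -0.030 with Cd3d, -0.0081 with Cd3g and 0.59 with Cd4. Cd247 had r of 0.79 with Cd8b1, and Cd5 had r of 0.63 with Cd3d and 0.69 with Cd3g. Cd8a had r of 0.037 with Cd3d and 0.049 with Cd8b1, and its highest value was 0.53, with Cd4. Of 36 pairs 27 were positive, and the median r was 0.22. All points share their array and its normalization, so these values describe the arrays and are given without a test.

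**Figure D4:**
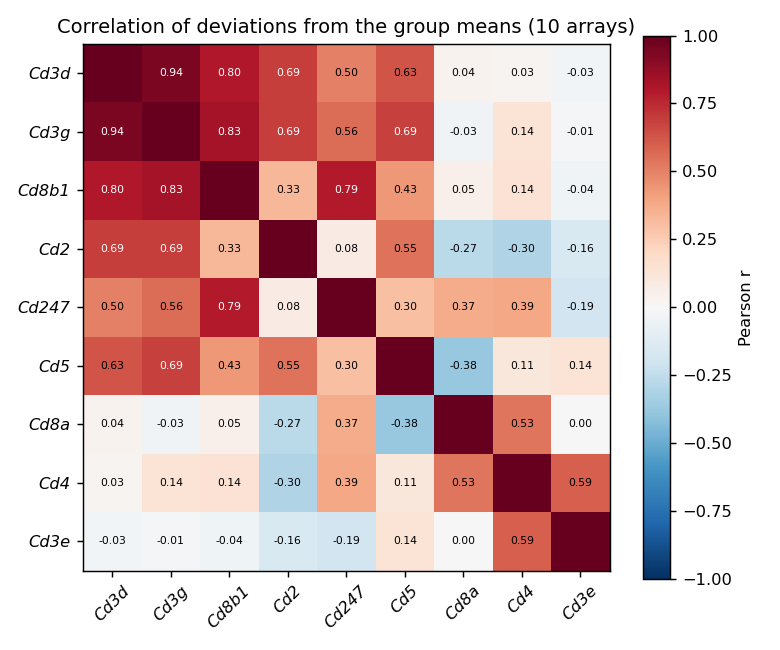
Pearson r between genes over the 10 arrays, computed on deviations from the group means, with red for positive and blue for negative values. Cd3d, Cd3g, Cd8b1 and Cd2 form a block of positive values at the upper left, with r from 0.33 for Cd8b1 and Cd2 to 0.94 for Cd3d and Cd3g, while Cd3e in the last row is near 0 with most genes.

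By the same measure, the genes outside the list whose profile was most like the mean deviation of the 9 genes were Ccl22, Mgl2, Bcl11b, Blk, Satb1, Catsperg1, Thy1 and Ufsp1, out of 12384 genes compared over 10 arrays. Their r ran from 0.86 for Ufsp1 to 0.89 for Ccl22. Bcl11b and Satb1 encode nuclear regulators of T cell development and Thy1 a surface protein of T cells, while Blk is a kinase of B cells and Ccl22 a chemokine of dendritic cells and macrophages. Of these 8 genes Blk and Satb1 passed the group comparison, both higher.

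A list of 36 receptor chain and other surface genes of T cells had 22 measured. No constant chain of the receptor was among them, and the only receptor chain gene was Trbv13-2. Of the 22 genes 1 rose, 2 fell and 19 did not pass, where 8.93% of all genes rose and 3.6% fell. Trbv13-2 differed by -0.20 (SE 0.10, limma adjusted p = 0.168). The median log2 fold change was 0.011. Il7r, the interleukin 7 receptor of naive and memory T cells, rose by 0.35 (SE 0.11, limma adjusted p = 0.0481) and lost its call in 7 of the 10 fits with 1 array left out, with quantile normalization and with the mean of its probe sets. Slamf1, a co-stimulatory receptor, fell by 0.39 (SE 0.08, adjusted p = 0.0134), and its groups did not overlap. With the mean of its probe sets the change was -0.23 (adjusted p = 0.0207). Cd96, a receptor of T and NK cells, fell by 0.29 (SE 0.08, adjusted p = 0.0317) and lost its call in 6 of the 10. Thy1 differed by 0.17 and Cd28 by -0.074, and neither passed.

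Of 29 measured signalling genes downstream of the receptor 5 rose, none fell and 24 did not pass, with a median change of 0.081. Over all genes 8.93% rose and 3.6% fell, with a median of 0.014. Ptprc, the phosphatase CD45 of all leukocytes, rose by 0.75 (SE 0.14, limma adjusted p = 0.00861), and all 5 exposed lungs lay above the normoxic ones. Without normoxia arrays 2, 3 and 4 together the change of Ptprc was 0.42 (adjusted p = 0.201). Ptpn6, the phosphatase SHP-1 of blood cells, rose by 0.66 (SE 0.14, adjusted p = 0.0132). The kinase genes Csk and Fyn rose by 0.36 (SE 0.08) and 0.32 (SE 0.08), and Vav1, an exchange factor of blood cells, rose by 0.33 (SE 0.09). Csk lost its call without normoxia array 4, and Fyn and Vav1 each in 5 of the 10 fits with 1 array left out. With quantile normalization the change of Fyn was 0.19 (adjusted p = 0.0997). These 5 genes are used by other leukocytes too, and Csk and Fyn by many tissues. The 24 genes that did not pass included Zap70, the kinase that docks on the CD3 chains (-0.061, adjusted p = 0.563), Lat, the adaptor it phosphorylates (0.16, adjusted p = 0.149), and Prkcq (-0.16, adjusted p = 0.242).

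Of 14 transcription factor genes of T cells 2 rose, 2 fell and 10 did not pass, with a median change of 0.059. The shares over all genes were 8.93% higher and 3.6% lower. Satb1, an organiser of chromatin in T cells, rose by 0.46 (SE 0.09, limma adjusted p = 0.00929), and Id2, an inhibitor of E proteins found in many cells, rose by 0.47 (SE 0.12, adjusted p = 0.0297). Gata3, the regulator of type 2 helper cells, fell by 0.35 (SE 0.08, adjusted p = 0.0198), and Runx3, a regulator of cytotoxic T cells, fell by 0.23 (SE 0.07, adjusted p = 0.0487). With 1 array left out, Id2 lost its call in 5 of the 10 fits and Runx3 in 9, and Gata3 lost it without hypoxia array 3 or normoxia array 4. The change of Id2 was 0.36 with quantile normalization (adjusted p = 0.0797) and 0.20 with the mean of its probe sets (adjusted p = 0.112). Runx3 also lost its call with the trended, robust fit (adjusted p = 0.0604).

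Markers of other cells were read beside the list, since whole lung holds them all. Each count stands beside the 8.93% of all genes that rose and the 3.6% that fell, and each median beside 0.014. B cell genes rose in 4 of 11 cases and none fell, with a median of 0.38. Ms4a1 (CD20) rose by 1.14 (SE 0.23), Cd79b by 1.12 (SE 0.23), Cd79a by 1.01 (SE 0.20) and Blk by 0.54 (SE 0.09), beside 0.49 for Cd3d and 0.60 for Cd2. Without normoxia arrays 2, 3 and 4 together these B cell changes were 0.77, 0.66, 0.50 and 0.47, and none passed (limma adjusted p from 0.167 to 0.321). The summed linear level of the B cell list ran from 6207 to 12347 in intermittent hypoxia and from 4499 to 18049 in normoxia. The highest normoxic sum was that of array 5, where Ighm stood at 13.80 on the log2 scale, and the other 4 normoxic sums ended at 6150. NK cell genes rose in 3 of 15 cases (Ccl5, Klra8 and Klrd1) and none fell, with a median of 0.031 and 9 positive changes. Cd160 (-0.13), Klrk1 (-0.13), Gzmb (-0.10), Prf1 (-0.088), Ncr1 (-0.060) and Klrb1b (-0.044) had negative changes that did not pass. The sums of the NK cell list were 2521 to 3259 in intermittent hypoxia and 2085 to 2605 in normoxia. Dendritic cell genes rose in 3 of 10 cases (Itgax, Cd83 and Irf8), with a median of 0.12. Their sums were 3687 to 4535 in intermittent hypoxia and 2909 to 3596 in normoxia. Of the 7 that did not pass, Flt3 (-0.19), Zbtb46 (-0.093), Xcr1 (-0.035) and Cd209a (-0.0037) had negative changes. Batf3 (0.042), Itgae (0.20) and Naaa (0.31) had positive ones. Macrophage and monocyte genes rose in 3 of 11 cases (Cd68, Ccr2 and Mrc1), with a median of 0.087 and 8 positive changes. Mertk (-0.29), Cd14 (-0.34) and Adgre1 (-0.21) had negative changes that did not pass. The sums were 25656 to 35221 in intermittent hypoxia and 25614 to 30784 in normoxia, and Lyz2, at a mean log2 level of 14.13, weighed most in them. No dendritic cell, macrophage or monocyte gene was called lower. The part of these cells in the change of the shared genes was not tested.

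Thymus and lymph node tissue can adhere to a dissected lung. The counts that follow also stand beside 8.93% of all genes higher and 3.6% lower. Of 7 thymocyte genes none rose and Rag2, a recombinase gene, fell by 0.56 (SE 0.15, limma adjusted p = 0.0331), a call lost in 7 of the 10 fits with 1 array left out. Rag1 differed by 0.046 and stood at the 2.6th percentile of all probe sets, against the 64.9th for Rag2. Whether the Rag2 probe set reports thymocytes was not tested. The summed level of the 7 genes ran from 2521 to 2912 in intermittent hypoxia and from 2609 to 2723 in normoxia. Of 6 genes listed for lymph nodes 1 rose (Ltb, 0.52) and 2 fell (Cxcl13, -0.54, and Madcam1, -0.31). Lta (-0.21), Chst4 (0.027) and Glycam1 (0.0053) did not pass. Whether Ltb reports lymph node tissue was not tested. The sums of the 6 genes were 850 to 1002 in intermittent hypoxia and 839 to 1121 in normoxia. Red cell genes, listed as markers of blood in the tissue, fell in 1 of 4 cases (Slc4a1), with a median of -0.38. Their sums ran from 1655 to 2339 in intermittent hypoxia and from 2191 to 5003 in normoxia. The highest normoxic sum was that of array 5, where Alas2 stood at 12.07, and the other normoxic sums ended at 2478. Of the globin genes, Hba-a1 stood at the 9.9th percentile of all probe sets and Hbb-b2 at the 59.3rd. Of 9 neutrophil genes 1 fell, with a median of -0.18 and sums of 4511 to 9064 in intermittent hypoxia and 3815 to 10036 in normoxia. Lung epithelial and endothelial markers were high on every array, with sums of 98638 to 112920 in intermittent hypoxia and 95958 to 112570 in normoxia, and 1 of 11 passed, higher.

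Array by array, the mean centred level of the 9 genes ran from -0.04 to 0.28 in intermittent hypoxia and from -0.25 to -0.04 in normoxia. Hypoxia array 4 was the highest (0.285) and normoxia array 3 the lowest (-0.250). The same arrays were the highest (0.627) and the lowest (-0.520) for the B cell list. Over the 10 arrays, deviations from the group means of the 9 genes had r of 0.82 with those of the transcription factor list, 0.70 with the dendritic cell list, 0.53 with the B cell list and 0.31 with the NK cell list, given as a description.

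**Figure D5:**
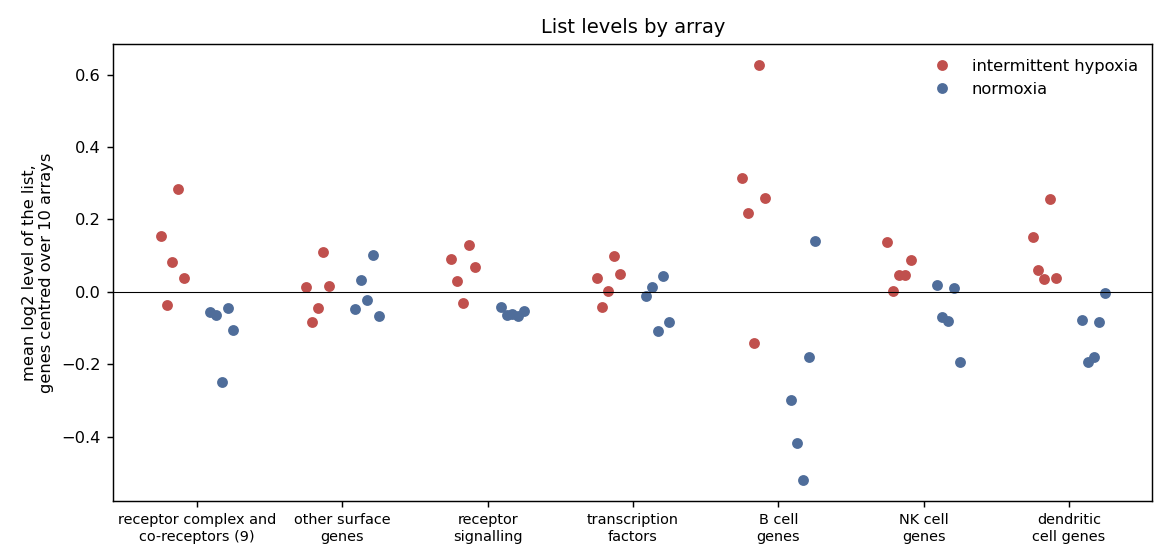
Mean log2 level of each gene list on each array, with genes centred over the 10 arrays (vertical axis), in intermittent hypoxia (red, left) and normoxia (blue, right) lungs, 1 point per mouse. The 9 receptor and co-receptor genes run from -0.04 to 0.28 in intermittent hypoxia and from -0.25 to -0.04 in normoxia, and the B cell genes have the widest spread of the lists drawn.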

How the data were processed

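Log2 probe set levels were used as deposited by the authors, 1 Affymetrix array per lung, and the tools listed per the submitters' processing notes are RMA and affy, with no version. The standard deviations of the arrays differed (1.89 to 2.05), so how arrays were normalized is uncertain. Of 22626 probe sets 20380 carried 1 symbol in the array's annotation. Groups were compared with limma 3.58.1 in R 4.3.3 over all probe sets without a filter, with Benjamini-Hochberg adjustment and a threshold of 0.05, so that p-values rest on the spread between mice. The number of arrays limits the precision. Members, lists and the naming rule (all members, the genes called in each list, and the 8 most alike genes) were chosen with earlier results of these data known. The rule was not followed throughout. Some called marker genes are not named, and some genes that did not pass are named beside it. No list was given a set test. The planned comparison of Lck with Cd3e was not run. Arrays with the same number were not paired: their deviations correlated at 0.06, 0.22, -0.12, 0.15 and -0.24. Alternatives were SAM with 100 permutations, a replicate block, quantile normalization, median centring, a filter on low levels, trend and robust options, array weights, a threshold of 0.10, averaging a gene's probe sets, and leaving out arrays. The tools were tested on simulated data. Promoter sequences came from RefSeq (GRCm38.p6), which held windows for 7 of the 10 genes.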

Additional observations from a re-analysis of the deposited data

Results flagged for a closer look

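A far array was looked for in the measured members, the most alike genes and Cd28, Zap70, Lat, Prkcq and Ighm. The genes called in the 3 T cell lists and in the B cell and thymocyte lists were searched too. On 3 of 74 groups of 5 arrays tested, 1 array stood far from the rest. Its gap to its nearest neighbour was above 0.71 of the group's range. Chance alone gives this in about 1 of 20 groups. Cd3g was 5.79 on normoxia array 3, and the next value of the group was 6.26. Blk was 6.93 on the same array, with the next value at 7.17. Rag2 was 8.41 on normoxia array 5, with the next value at 8.85. Without normoxia array 3 the change of Cd3g was 0.40 (limma adjusted p = 0.0732).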

How the results depend on the processing

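The member count was 4 with all arrays, and it was 4 in 7 of the 9 alternatives that kept all arrays and 3 with the replicate block. With the lower-level probe sets removed (mean under the median) it was 1, because 2 members stayed in the table. With 1 array left out it ran from 2 to 4, and without normoxia arrays 2, 3 and 4 together it was 0, where 16 probe sets passed in all. In that setting Cd3e turned to 0.076, against -0.087 with all arrays. The surface gene count of 3 became 6 with SAM, 1 with the level filter, 5 with array weights, 7 at an adjusted p below 0.10, 1 to 6 with 1 array left out and 0 without the 3 normoxia arrays. The signalling count of 5 became 9 with SAM, 2 to 8 with 1 array left out and 0 without the 3 arrays. The transcription factor count of 4 ran from 1 to 5 and was 0 without the 3 arrays. The 84 marker genes gave 20 calls, 36 with SAM, 34 at the looser threshold, 13 to 28 with 1 array left out and 1 without the 3 arrays. With a replicate block, which the array numbers do not bear out, Cd8b1 had the same change of 0.29 (limma adjusted p = 0.0828), and the other 3 member calls stood. Cd8a minus Cd4 was 0.23 with averaged probe sets (exact permutation p after adjustment 0.0238) and lay between 0.23 and 0.35 when single arrays were dropped. The same range was 0.13 to 0.28 for Cd8b1 minus Cd8a and 0.14 to 0.28 for Cd247 minus Cd3e, which passed without normoxia array 5. The cause of these moves was not tested. Quantile normalization moved the share of higher calls over all probe sets from 71.2% to 59.1%. The levels of 7 of the 9 genes lay below the median of all probe sets, and whether they lay above background was not tested.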
